A study of Mus musculus with 22 samples.

Results

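This account follows the integrins, the laminins and the thrombospondins, which are receptors and ligands of the contact between a cell and its matrix, in mouse liver. Genes were taken by symbol: the numbered integrin α chains with Itgav, the integrin β chains, the laminin α, β and γ chains and the thrombospondins. The rule found 35 of the 24011 genes on the array, namely 13 integrin α chains, 8 integrin β chains, 10 laminin chains and 4 thrombospondins. The leukocyte α chains Itgal, Itgam, Itgax, Itgad and Itgae carry letters in place of numbers and are treated beside the 35.

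Total liver RNA of 22 female C57BL/6J mice, 12 weeks old, was read on Affymetrix MoGene 2.0 ST arrays, with each sample taken as 1 mouse. Wild-type mice ate regular chow (WT_chow, n = 5) or chow with 0.1% ursodeoxycholic acid (WT_UDCA, n = 6), and Cyp2c70 knockout mice ate the same chow (KO_chow, n = 5) or the same UDCA diet (KO_UDCA, n = 6). Ursodeoxycholic acid (UDCA) is a hydrophilic bile acid, fed for 7 weeks from the age of 5 weeks. Cyp2c70 makes the muricholic acids that keep the bile acid pool of mice hydrophilic, and the series title puts bile duct disease, biliary fibrosis and their reversal by UDCA as the question. The sources used here do not say how the knockout allele was built.

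An integrin is a pair of an α and a β chain that spans the membrane, binds matrix or cell surface ligands outside and the actin cytoskeleton inside. Laminins are trimers of an α, a β and a γ chain, and with type IV collagen and nidogen they form the basement membrane that underlies epithelia and vessels. Thrombospondins are secreted matricellular proteins. In fibrotic liver, αv integrins and thrombospondin 1 are known as activators of latent TGF-β, and bile ducts rest on a laminin-rich basement membrane.

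As a check of the labels, Cyp2c70 was 1.78-fold lower in KO_chow than in WT_chow, with no overlap (log2 10.65 ± 0.12, SD, n = 5, against 11.49 ± 0.14, SD, n = 5). Signal remained in the knockouts, and which exons the probes cover was not analysed here. The 6 measured hepatocyte markers, among them Alb and Ttr, averaged between 11.90 and 12.09 log2 units in every mouse. KO_chow mice 2 and 5 stood apart from the other 3 KO_chow mice in many genes, so both comparisons with KO_chow were repeated without them. Levels below are log2 of the deposited intensity, and a difference of 1 is a 2-fold difference. Probe sets differ in how brightly they respond, so levels are compared between mice and not between genes. The median gene of an array read between 4.85 and 4.96. Of the 35 members, 18 lay above that median on every array and 5 below it on every array (Lama3, Itga11, Thbs4, Itga10 and Itgb6).

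On regular chow, integrin, laminin and thrombospondin genes stood higher in the knockout. In KO_chow vs WT_chow 18 of 35 members rose (51.4%), against 7.69% of all genes, and 1 fell (2.86%), against 6.03% of all genes (limma, adjusted p below 0.05 over all genes). The median log2 change was 0.35 over the members and -0.04 over all genes. Groups did not overlap for 15 members that were higher, against 5.45% of all genes, and for 1 that was lower, against 3.98%. By family, 8 of 13 integrin α chains, 4 of 8 integrin β chains, 4 of 10 laminin chains and 2 of 4 thrombospondins rose, and the member that fell was the laminin chain Lama1. In RNA of whole liver, a change in the number of cells of a type and a change in RNA per cell cannot be told apart.

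**Figure D1:**
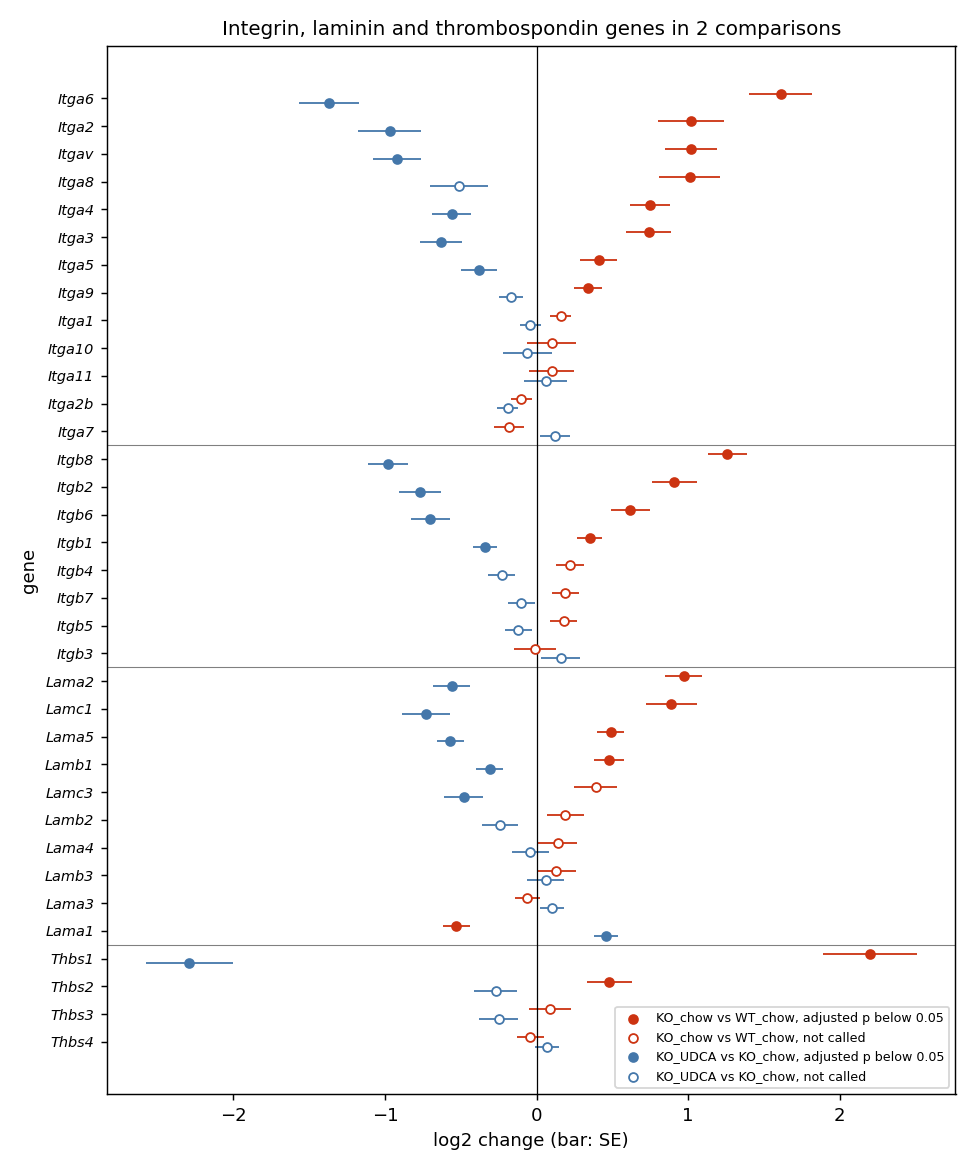
Log2 change (x axis, bar: SE) of all 35 genes (y axis, grouped as α chains, β chains, laminins and thrombospondins) in the knockout against the wild type on chow (red) and in the UDCA-fed against the chow-fed knockout (blue), with filled points at an adjusted p below 0.05. The largest value in both is that of Thbs1, at 2.20 and -2.29, and Lama1 is the only filled gene whose signs are turned, at -0.53 and 0.46.

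Among the integrin α chains, Itga6 had the largest difference. Itga6 encodes α6, a laminin receptor chain of epithelia and endothelia that pairs with Itgb1 or Itgb4. It read 5.88, 5.55, 5.77, 5.67 and 5.69 in WT_chow mice 1 to 5 and 6.58, 8.10, 7.37, 6.60 and 7.95 in KO_chow mice 1 to 5. KO_chow mice 2 and 5 were the highest and mice 1 and 4 the lowest of the knockouts, and the groups did not overlap. The rise was 3.04-fold (log2 change 1.61, SE 0.21, limma adjusted p = 1.58e-05). WT_UDCA ran from 5.62 to 6.02 with a median of 5.69, and KO_UDCA from 5.71 to 6.16 with a median of 5.94. UDCA-fed knockouts thus lay below every KO_chow mouse, a 2.58-fold fall (limma adjusted p = 0.000109). The log2 changes were 1.14 and -0.90 when KO_chow mice 2 and 5 were left out, and both stayed called (adjusted p = 5.81e-05 and 0.000935).

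Itgav encodes αv, the chain shared by the receptors for the RGD motif of vitronectin, fibronectin and latent TGF-β. WT_chow mice 1 to 5 read 8.00, 8.06, 7.96, 7.99 and 8.04, and KO_chow mice 1 to 5 read 8.55, 9.72, 8.75, 8.56 and 9.55. The wild types differed by little, whereas KO_chow mice 2 and 5 stood about 1 unit above the other knockouts. Itgav rose 2.02-fold on chow (limma adjusted p = 0.000254). It fell 1.89-fold under UDCA (adjusted p = 0.000609), with KO_UDCA between 8.00 and 8.28 (median 8.08) and WT_UDCA between 7.68 and 8.09 (median 7.96). Without KO_chow mice 2 and 5 the log2 change on chow was 0.61 in place of 1.02, and that under UDCA was -0.52 in place of -0.92, and both stayed called (adjusted p = 0.00033 and 0.00214).

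Of the 5 measured β chains that pair with αv, Itgb8, Itgb6 and Itgb1 rose on chow, and Itgb5 and Itgb3 did not pass. Itgb8, whose αvβ8 pair is known to activate latent TGF-β, read 4.91, 5.10, 4.94, 5.04 and 4.86 in WT_chow and 6.72, 6.15, 5.73, 6.47 and 6.06 in KO_chow. Here mice 1 and 4 were the highest of the knockouts. Itgb8 rose 2.39-fold on chow and had the smallest adjusted p of the 35 genes in that comparison (limma adjusted p = 9.32e-07). It fell 1.97-fold under UDCA (adjusted p = 2.24e-05), with KO_UDCA between 4.93 and 5.47 (median 5.29). WT_UDCA read lower and closely together, from 4.74 to 4.81 (median 4.75). With KO_chow mice 2 and 5 left out, the log2 changes of Itgb8 were 1.34 on chow in place of 1.26 and -1.06 under UDCA in place of -0.98. Both stayed called (adjusted p = 1.33e-05 and 0.000219).

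Itgb6, the epithelial partner in αvβ6, was dim, below the array median in all 22 mice. It read 3.80, 3.91, 3.46, 4.10 and 3.48 in WT_chow and 4.22, 4.73, 4.04, 4.50 and 4.37 in KO_chow, so the groups overlapped by 1 mouse on each side. Itgb6 rose 1.54-fold on chow (limma adjusted p = 0.00289) and fell 1.63-fold under UDCA (adjusted p = 0.000912), where KO_UDCA ran from 3.39 to 4.00. The call on chow was lost without KO_chow mice 2 and 5 (adjusted p = 0.0561).

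Itgb5 and Itgb3, which form the vitronectin receptors αvβ5 and αvβ3, did not pass the test on chow. Itgb5 read 8.29, 8.44, 8.45, 8.35 and 8.58 in WT_chow and 8.78, 8.75, 8.35, 8.70 and 8.45 in KO_chow, and its log2 change of 0.18 had a 95% interval from -0.00 to 0.37 (limma adjusted p = 0.202). Itgb3 read 5.55, 5.68, 5.58, 5.89 and 5.99 in WT_chow and 5.36, 5.82, 5.76, 5.41 and 6.28 in KO_chow. Its log2 change was -0.01, with an interval from -0.30 to 0.28 (adjusted p = 0.977). The groups overlapped for both genes.

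**Figure D2:**
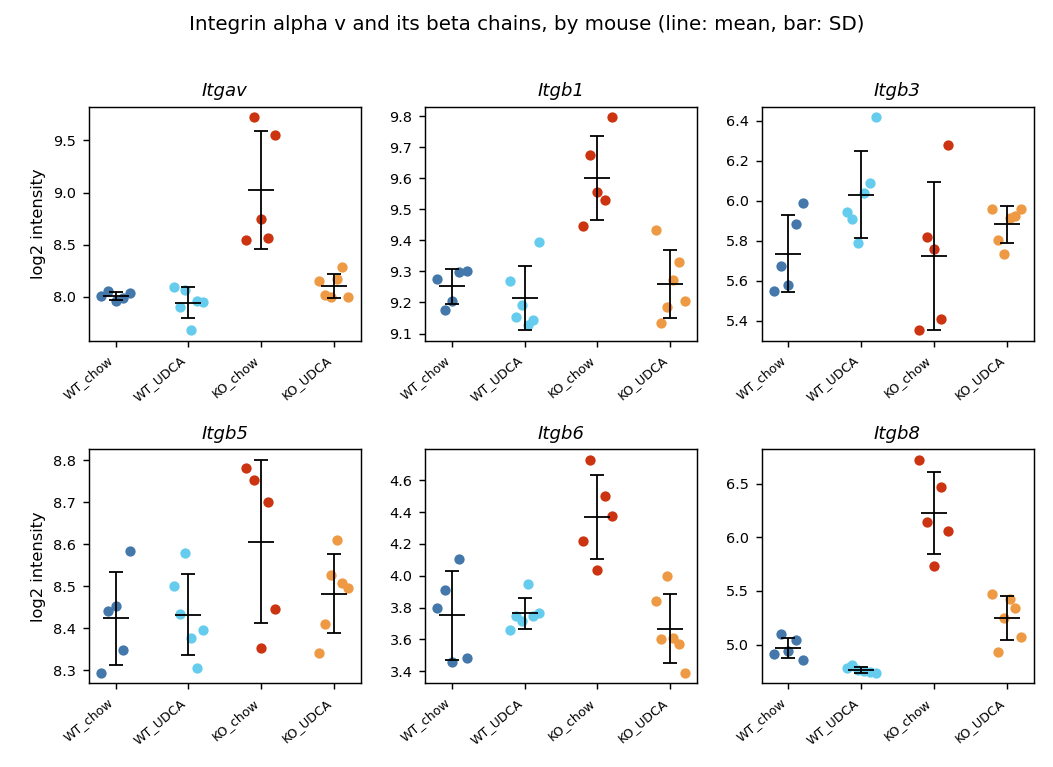
Log2 intensity (y axis, own scale in each panel) of Itgav and of 5 β chains that pair with αv in each mouse, by group (x axis), with the mean as a line and the SD as a bar. Itgb8 separates KO_chow (5.73 to 6.72) from every other mouse, whereas KO_chow overlaps WT_chow in Itgb3 (5.36 to 6.28) and Itgb5 (8.35 to 8.78).

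To show the sequence around the start of these genes, the promoter windows of Itgav and of its partners Itgb8 (risen) and Itgb5 (not called) are printed with that of the laminin chain Lama2. Each runs from 250 bases before to 50 bases after the annotated start, from RefSeq on GRCm38.p6, where 24 of the 35 genes had an entry. Capitals mark the GC box GGGCGG on either strand, the only motif of 3 searched that these 4 windows hold.
Itgav, chr2:83724147-83724446, plus strand: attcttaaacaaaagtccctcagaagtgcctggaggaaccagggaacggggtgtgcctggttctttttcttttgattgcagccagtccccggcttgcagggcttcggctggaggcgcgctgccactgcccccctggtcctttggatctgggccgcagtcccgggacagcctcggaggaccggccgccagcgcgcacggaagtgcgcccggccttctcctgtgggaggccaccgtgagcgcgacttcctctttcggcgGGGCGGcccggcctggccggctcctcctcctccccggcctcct
Itgb8, chr12:119238227-119238526, minus strand: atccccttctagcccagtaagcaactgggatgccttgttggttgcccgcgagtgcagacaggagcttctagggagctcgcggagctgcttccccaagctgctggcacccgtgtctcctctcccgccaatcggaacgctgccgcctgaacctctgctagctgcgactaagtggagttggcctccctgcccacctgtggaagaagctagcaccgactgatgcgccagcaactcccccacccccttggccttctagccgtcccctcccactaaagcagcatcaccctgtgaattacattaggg
Itgb5, chr16:33829415-33829714, plus strand: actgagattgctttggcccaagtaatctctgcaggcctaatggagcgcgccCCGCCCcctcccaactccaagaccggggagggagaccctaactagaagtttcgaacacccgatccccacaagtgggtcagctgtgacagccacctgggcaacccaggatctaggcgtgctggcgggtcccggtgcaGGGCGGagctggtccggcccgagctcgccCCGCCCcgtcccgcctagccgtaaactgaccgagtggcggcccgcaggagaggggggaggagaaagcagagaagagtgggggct
Lama2, chr10:27616893-27617192, minus strand: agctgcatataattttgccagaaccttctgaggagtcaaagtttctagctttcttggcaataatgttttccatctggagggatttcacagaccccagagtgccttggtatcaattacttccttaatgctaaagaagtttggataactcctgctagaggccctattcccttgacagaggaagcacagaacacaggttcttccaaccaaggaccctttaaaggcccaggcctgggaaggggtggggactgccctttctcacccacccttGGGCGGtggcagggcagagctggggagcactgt

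The GC box stood 3 times in the window of Itgb5, 1 time each in those of Itgav and Lama2 and not in that of Itgb8. It occurred in 13 of the 27 windows of the 24 matched genes and in 35.7% of all 32851 promoter windows. The AP-1 motif TGANTCA occurred in 2 of these 27 windows (of Itga3 and Itga9) and in 7.81% of all windows. The TEAD motif GGAATG occurred in 4 of the 27 (of Itga10, Itgb1, Lamb3 and Thbs4) and in 14.7% of all. Both strands were searched, and matches to different motifs shared 0 bases in the members' windows. A match describes letters in the window and is not a site.

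Itga2 and Itga8 are further chains that pair with Itgb1. Itga2, the collagen receptor chain of platelets and epithelia, read 4.23, 4.50, 4.23, 4.42 and 4.81 in WT_chow and 5.21, 6.46, 4.82, 4.97 and 5.83 in KO_chow, with mouse 3 barely above the highest wild type. It rose 2.03-fold (limma adjusted p = 0.00255) and fell 1.95-fold under UDCA (adjusted p = 0.00364), with KO_UDCA between 4.39 and 4.76. Its log2 change on chow was, with KO_chow mice 2 and 5 left out, 0.56 in place of 1.02 (adjusted p = 0.0358). The fall under UDCA then lost its call (log2 change -0.51, adjusted p = 0.0703).

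Itga8, a chain of mesenchymal cells that binds nephronectin, read 6.25, 6.02, 6.46, 6.26 and 6.09 in WT_chow and 7.93, 6.97, 6.64, 7.83 and 6.74 in KO_chow. Mice 1 and 4 were about 1 unit above the other knockouts, the reverse of Itga6 and Itgav. Itga8 rose 2.01-fold on chow (limma adjusted p = 0.00154). KO_UDCA ran from 6.24 to 7.07 (median 6.72), and the change from KO_chow, -0.51 (SE 0.19), was not called (adjusted p = 0.0945). Without KO_chow replicate 3, the lowest knockout, that change was called (adjusted p = 0.031). With KO_chow mice 2 and 5 left out, the log2 change on chow was 1.25 in place of 1.01 (adjusted p = 0.0011). The change under UDCA was then -0.76 and not called (adjusted p = 0.0579).

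The remaining α chains that rose were smaller. Itga4, whose α4β1 pair binds VCAM1 on endothelium, rose 1.69-fold, and Itga3, a laminin receptor chain of epithelia, rose 1.67-fold (limma adjusted p = 0.000516 and 0.0014). KO_chow mice read 6.22 to 7.03 for Itga4 and 6.17 to 7.17 for Itga3, above all WT_chow mice at 5.58 to 5.98 and 5.61 to 5.98. Both fell under UDCA (1.48-fold and 1.55-fold). With KO_chow mice 2 and 5 left out these falls lost their calls (adjusted p = 0.14 and 0.121). Itga9, a receptor chain for tenascin C, rose 1.27-fold (adjusted p = 0.00938, and 0.144 without KO_chow mice 2 and 5).

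Itga5, which with Itgb1 forms the classical fibronectin receptor, rose 1.33-fold on chow and fell 1.30-fold under UDCA (limma adjusted p = 0.0234 and 0.0353). Both calls were fragile. Leaving out any of KO_chow mice 2, 3 and 5 ended both (adjusted p at most 0.0827 on chow and 0.119 under UDCA). So did leaving out WT_chow mouse 1 or 2 for the rise, and KO_UDCA mouse 2, 3, 5 or 6 for the fall. With KO_chow mice 2 and 5 both left out, adjusted p was 0.277 and 0.366. The α chains that did not pass on chow were Itga1, Itga10, Itga11, Itga2b and Itga7, with log2 changes between -0.18 and 0.16.

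Itga1, Itgb1 and Itgb5 gave the brightest readings of the 35. Itga1, a collagen and laminin receptor chain, read 8.32, 8.39, 8.27, 8.46 and 8.46 in WT_chow and 8.65, 8.53, 8.46, 8.59 and 8.49 in KO_chow, a log2 change of 0.16 with an interval from 0.01 to 0.32 that did not pass after adjustment (limma adjusted p = 0.157). Itgb1, the common partner of most α chains, read 9.28, 9.18, 9.21, 9.30 and 9.30 in WT_chow and 9.44, 9.68, 9.56, 9.53 and 9.80 in KO_chow. It rose 1.27-fold, with no overlap (adjusted p = 0.00454), and fell 1.27-fold under UDCA to between 9.14 and 9.43 (adjusted p = 0.00503). Both calls were lost when KO_chow mice 2 and 5 were left out (adjusted p = 0.0889 and 0.113).

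Itgb4, the hemidesmosome partner of α6, read 4.66, 4.62, 4.62, 4.77 and 4.80 in WT_chow and 4.77, 5.06, 4.93, 4.87 and 4.94 in KO_chow. Its log2 change was 0.22 (interval 0.03 to 0.42, limma adjusted p = 0.127), against 1.61 for its partner Itga6. Itgb4 lay above the array median in 3 of 22 mice and Itga6 in 22 of 22. Dim readings limit the size of a change, so these values do not show that Itgb4 changed less. Itgb7, the lymphocyte partner of α4, changed by 0.19 (adjusted p = 0.202), with KO_chow mice between 4.63 and 5.05.

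Itgb2 is the β chain of leukocyte integrins. It read 6.32, 6.41, 6.38, 6.36 and 6.28 in WT_chow and 6.85, 7.70, 7.38, 6.82 and 7.53 in KO_chow, with mice 2 and 5 the highest. It rose 1.88-fold and fell 1.71-fold under UDCA (limma adjusted p = 0.00025 and 0.00106), and KO_UDCA, at 6.23 to 6.84, overlapped KO_chow by a narrow margin. Leaving out KO_chow mice 2 and 5 gave log2 changes of 0.67 on chow in place of 0.91 and -0.53 under UDCA in place of -0.77 (adjusted p = 0.00841 and 0.044). Of the 5 leukocyte α chains, 2 rose and 0 fell on chow, against 7.69% and 6.03% of all genes. Itgax, a marker of dendritic cells and lipid-associated macrophages, rose 4.03-fold and Itgam, of neutrophils and monocytes, 1.85-fold (adjusted p = 4.89e-09 and 0.00267). Itgal, Itgad and Itgae did not pass.

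Among the laminins, the α chain Lama2 and the γ chain Lamc1 had the largest changes on chow. Lama2, of the merosin laminins of muscle and mesenchyme, read 5.12, 5.02, 5.07, 5.12 and 4.99 in WT_chow and 6.40, 5.92, 5.81, 6.13 and 5.90 in KO_chow. Every knockout lay above every wild type, and mice 1 and 4 were again the highest. Lama2 rose 1.96-fold (limma adjusted p = 1.02e-05) and fell 1.47-fold under UDCA (adjusted p = 0.00323), with KO_UDCA spread from 4.99 to 5.82 (median 5.49). With KO_chow mice 2 and 5 left out, its log2 changes were 1.05 in place of 0.97 and -0.64 in place of -0.56. Both stayed called (adjusted p = 7.71e-05 and 0.0121).

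Lamc1 encodes γ1, the γ chain of most laminin trimers. It read 7.18, 6.97, 6.96, 7.22 and 7.26 in WT_chow and 7.53, 8.60, 7.95, 7.37 and 8.58 in KO_chow, with mice 2 and 5 the highest. It rose 1.85-fold and fell 1.66-fold under UDCA (limma adjusted p = 0.000943 and 0.0044), with KO_UDCA between 7.18 and 7.44. Without KO_chow mice 2 and 5 the log2 change on chow was 0.50 in place of 0.89 (adjusted p = 0.00848), and the fall lost its call (log2 change -0.34, adjusted p = 0.0917).

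Lama5 and Lamb1, the other chains that rose, are α5 of mature epithelial and vascular basement membranes and the β1 chain. They rose 1.40-fold and 1.39-fold on chow (limma adjusted p = 0.000948 and 0.00165) and fell 1.49-fold and 1.24-fold under UDCA (adjusted p = 0.000166 and 0.0282). For Lama5, leaving out KO_chow mice 2 and 5 gave 0.31 on chow in place of 0.49 and -0.40 under UDCA in place of -0.57, both called (adjusted p = 0.0223 and 0.00401). The fall of Lamb1 depended on single animals: it missed the threshold when any of KO_chow mice 1, 2 and 5 or KO_UDCA mice 2, 3 and 6 was left out (adjusted p between 0.0518 and 0.0772). Lamc3 was at 0.39 on chow (adjusted p = 0.0544) and fell 1.40-fold under UDCA (adjusted p = 0.0172). On chow, Lamc3 was called without KO_chow replicate 2 or 3 or WT_chow replicate 5 (adjusted p down to 0.035).

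Lama1, the α1 chain of early embryonic basement membranes, was the only member that fell on chow, and its values are given for that reason. It read 5.51, 5.67, 5.56, 5.67 and 5.68 in WT_chow and 5.20, 4.83, 5.27, 5.08 and 5.08 in KO_chow, so every knockout lay below every wild type. The fall was 1.44-fold (limma adjusted p = 0.00025). In KO_UDCA it ran from 5.34 to 5.75 (median 5.54), above every KO_chow mouse, a rise of 1.38-fold (adjusted p = 0.000804). Lama3, Lama4, Lamb2 and Lamb3 did not pass on chow or under UDCA, with log2 changes on chow between -0.06 and 0.19.

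Thbs1, the matricellular activator of latent TGF-β, had the largest difference of the 35 genes. It read 4.66, 4.47, 4.67, 5.48 and 4.74 in WT_chow and 6.28, 7.67, 7.57, 5.52 and 7.99 in KO_chow. The knockouts spread over more than 2 units, and the lowest of them, mouse 4, was barely above the highest wild type, also mouse 4. Numbers name mice within a group and pair none. Thbs1 rose 4.59-fold on chow (log2 change 2.20, SE 0.31, limma adjusted p = 3.36e-05). KO_UDCA, at 4.55 to 4.89 (median 4.67), lay where WT_UDCA lay, at 4.55 to 4.82 (median 4.68). Thbs1 was above the array median in only 7 of 22 mice, and such dim readings limit the size of a difference between these groups. Without KO_chow mice 2 and 5 the log2 changes were 1.65 on chow and -1.74 under UDCA (adjusted p = 0.00089 and 0.000576).

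The related Thbs2, a gene of fibroblasts, rose 1.39-fold on chow (limma adjusted p = 0.0284). This missed the threshold when mouse 1, 2 or 4 of either group was left out (adjusted p between 0.0603 and 0.0808). Under UDCA it was at -0.27 (adjusted p = 0.236). Thbs3 and Thbs4, of the pentameric thrombospondins of bone and tendon, did not pass in either comparison. Their log2 changes on chow were 0.09 (interval -0.19 to 0.37) and -0.04 (interval -0.21 to 0.14).

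**Figure D3:**
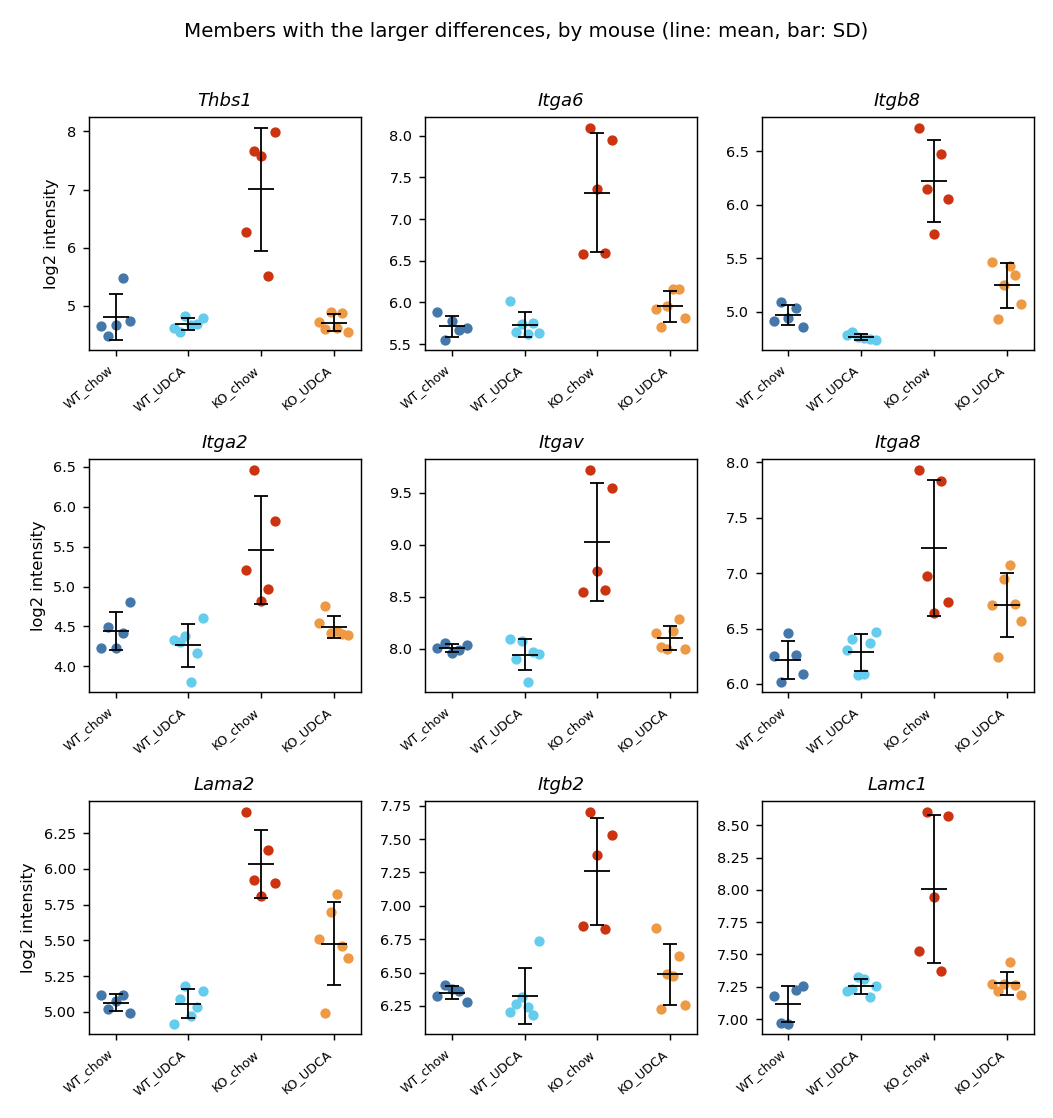
Log2 intensity (y axis, own scale in each panel) in each mouse, by group (x axis), of the 9 genes called with a log2 change of at least 0.8 in size in either comparison with KO_chow, with the mean as a line and the SD as a bar. KO_chow mice spread most in Thbs1 (SD 1.06) and Itga6 (SD 0.72), and the KO_UDCA mean lies below the KO_chow mean in all 9 panels, with overlap in Itga8, Itgb2, Lama2 and Lamc1 and no call for Itga8.

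Feeding UDCA to knockouts went with lower levels of many of these genes. In KO_UDCA vs KO_chow 16 of 35 members fell (45.7%), against 6.22% of all genes, and 1 rose (2.86%), against 5.03%. Groups did not overlap for 9 members that were lower, against 3.27% of all genes, and for 1 that was higher, against 2.62%. The median log2 change was -0.27 over the members and 0.03 over all genes. In all, 15 genes rose on chow and fell under UDCA, and Lama1 did the reverse. Of the 18 that rose on chow, Itga8, Itga9 and Thbs2 were not called lower under UDCA. These 2 comparisons share the KO_chow mice, so opposite signs between them are not independent. When KO_chow mice 2 and 5 were left out, 14 members rose on chow and 9 fell under UDCA, against 3.24% of all genes higher and 2.09% lower.

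The genotype by diet interaction tests whether the knockout effect differed between diets. It was called for 8 of 35 members (22.9%), against 2.67% of all genes, all with a smaller knockout effect under UDCA, the direction of 2.07% of all genes, with 0.6% in the other. Thbs1 differed by -2.18 log2 units between the diets, Itga6 by -1.39, Itga4 by -0.80 and Itgb8 by -0.77 (limma adjusted p = 0.00558, 0.0105, 0.0183 and 0.0227), and these 4 kept their calls in all 22 fits without a single mouse. With KO_chow mice 2 and 5 left out, 3 were called (Thbs1, Itga6 and Itgb8), and Itga4 was not (adjusted p = 0.106). Itgav, Lamc1, Itgb2 and Itgb6 were called as well (adjusted p = 0.0439, 0.0426, 0.0493 and 0.0366). Their calls were lost in 17, 19, 19 and 12 of the 22 fits without a single mouse (adjusted p up to 0.109).

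Under UDCA, the knockout did not differ from the wild type in any member at the threshold. In KO_UDCA vs WT_UDCA 0 of 35 members were called by limma, against 0.0167% of all genes, and 6 of 35 (17.1%) had an unadjusted p below 0.05, against 5.45% of all genes. The lowest adjusted p was that of Itgb8, at 0.43. Its KO_UDCA mice, from 4.93, all lay above the WT_UDCA mice, up to 4.81, a log2 difference of 0.48 (SE 0.12). Among all genes 0.108% were higher without overlap in this comparison. Lama2 and Itga8 differed by 0.42 each (SE 0.11 and 0.18, adjusted p = 0.488 and 0.877), with overlap.

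Against untreated wild types the picture was alike. In KO_UDCA vs WT_chow 0 of 35 were called by limma, against 0.025% of all genes (0.00416% higher and 0.0208% lower), and 5 (14.3%) had an unadjusted p below 0.05, against 5.62% of all genes. Their log2 differences were 0.50 for Itga8 (SE 0.19), 0.41 for Lama2 (SE 0.12), 0.28 for Itgb8 (SE 0.13), 0.17 for Itga9 (SE 0.08) and -0.29 for Itga2b (SE 0.07), with adjusted p = 0.788, 0.508, 0.881, 0.882 and 0.29. A p above the threshold does not show that these levels were equal. In WT_UDCA vs WT_chow 0 of 35 members and 0% of all genes were called by limma, and 1 member (2.86%), Itgb3, had an unadjusted p below 0.05, against 5.57% of all genes (log2 change 0.29, SE 0.13, adjusted p = 0.879). Itgb8 was lower in every WT_UDCA than in every WT_chow mouse (log2 change -0.21, SE 0.13, adjusted p = 0.929), as were 0.333% of all genes.

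The members did not follow a single order over the 5 KO_chow mice. Of the 18 that rose on chow, 11 had their 2 highest knockout values in mice 2 and 5, among them Thbs1, Itga6, Itgav, Itga2, Itgb2 and Lamc1. Another 4 (Itga8, Itgb8, Lama2 and Thbs2) had them in mice 1 and 4, and the last 3 in other pairs. This grouping was seen in the data and has no test. How often all risen genes had these orders was not counted, so it is not shown to be particular to the members. Over all genes, 7.69% were called higher on chow with all KO_chow mice and 3.24% without mice 2 and 5. No fit left out mice 1 and 4 together. Over all 35 genes the median log2 distance from the WT_chow mean was 0.36, 0.44, 0.24, 0.35 and 0.52 in KO_chow mice 1 to 5. It lay between -0.02 and 0.14 in KO_UDCA and between -0.09 and 0.01 in WT_UDCA.

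**Figure D4:**
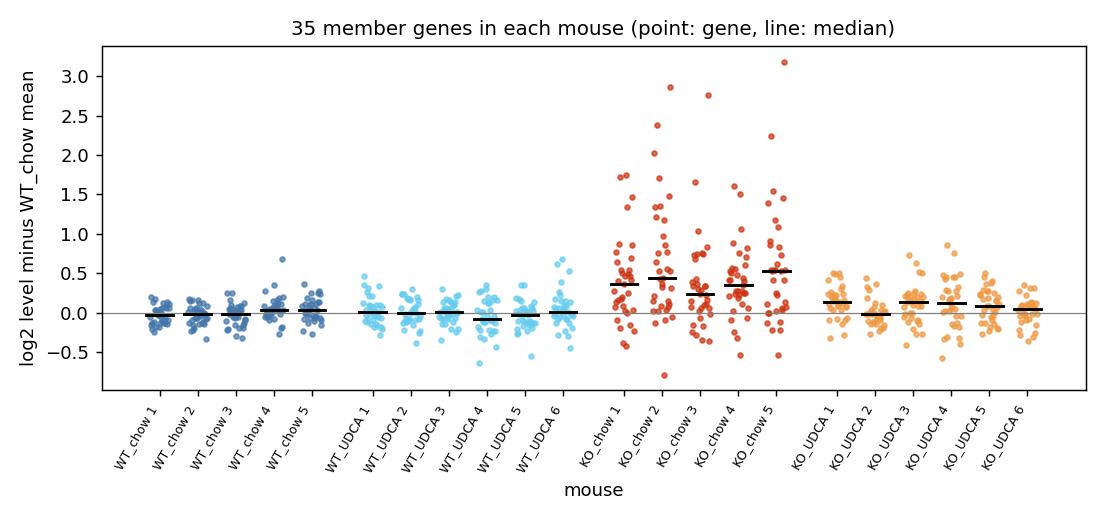
Log2 level minus the WT_chow mean (y axis) of the 35 genes (points) in each of the 22 mice (x axis), with the median as a line. The medians of the 5 KO_chow mice, 0.24 to 0.52, lie above those of all other mice, of which the highest is 0.14.

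Markers of several cell types moved with the same groups. Over all genes 7.69% rose and 6.03% fell on chow, and 5.03% rose and 6.22% fell under UDCA. All 9 measured cholangiocyte markers rose on chow and fell under UDCA, and their summed intensity was 673 to 1377 in KO_chow, 265.1 to 303.4 in WT_chow and 298.3 to 431.4 in KO_UDCA. Of 8 markers of monocyte-derived macrophages, a list that holds Itgax, all rose and all fell, with sums of 1017 to 3253 in KO_chow, 439.4 to 525.1 in WT_chow and 525.5 to 635 in KO_UDCA. Stellate and fibroblast markers rose in 8 of 11 and fell under UDCA in 7, with sums of 3346 to 4193 in KO_chow and 2106 to 2211 in WT_chow. Their sums in KO_chow mice 1 to 5 were 3721, 4003, 3346, 3986 and 4193.

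Neutrophil markers rose in 6 of 7 (sums of 125.9 to 237.4 in KO_chow and 106.2 to 117.2 in WT_chow). Among KO_chow mice, the sums of the cholangiocyte and macrophage lists were highest in mice 2 and 5. Neutrophil sums were 237.4, 208.4 and 204 in mice 2, 5 and 3. Stellate and fibroblast sums were close in mice 5, 2 and 4, at 4193, 4003 and 3986. In turn, Kupffer cell markers fell in 5 of 7 (sums of 885.9 to 1168 in KO_chow and 1440 to 1671 in WT_chow). Platelet markers rose in 1 of 8, lymphocyte markers in 1 of 8, and of 8 markers of sinusoidal endothelium 1 rose and 1 fell. Counts of 1 of 8 are near the shares over all genes, at 7.69% higher and 6.03% lower on chow. The sums of these last 3 lists overlapped between KO_chow and WT_chow. Itga2b, which is itself on the platelet list, and its partner in platelets, Itgb3, did not pass on chow. The part of these cell types in the changes of the members was not tested.

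Genes that work with the 35 were read as lists, beside shares over all genes of 7.69% higher and 6.03% lower on chow, and 5.03% higher and 6.22% lower under UDCA. Of 16 other basement membrane genes 6 rose and 2 fell on chow, with a median log2 change of 0.24. Nidogen 1 (Nid1), which links laminin to type IV collagen, rose 3.04-fold and the collagen chains Col4a1 and Col4a2 2.15-fold and 1.97-fold (limma adjusted p at most 7.21e-05). The genes that fell were Col18a1 (1.28-fold) and Fras1 (1.32-fold). Under UDCA 6 of the 16 fell and 1 rose, and Nid1 fell 2.60-fold (adjusted p = 7.67e-05).

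Of 15 measured integrin ligands outside the laminins and thrombospondins 7 rose and 0 fell on chow. Tenascin C (Tnc) rose 4.87-fold, the matricellular Ccn1 2.31-fold and the α4β1 ligand Vcam1 2.30-fold (limma adjusted p = 1.62e-05, 0.00361 and 0.00184). Fibronectin (Fn1), which hepatocytes also make, was at 0.08 (SE 0.07, adjusted p = 0.546). Under UDCA 6 fell, with Tnc 5.19-fold lower (adjusted p = 9.89e-06).

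Of 26 cytoplasmic genes of integrin adhesions 10 rose and 2 fell on chow. The actin crosslinker filamin A (Flna) rose 2.38-fold, vinculin (Vcl) 2.20-fold and the epithelial kindlin Fermt1 1.91-fold (limma adjusted p at most 0.000319), while Lims2 fell 1.47-fold and Sharpin, an inhibitor of integrin activation, 1.18-fold. The median log2 change of the list was 0.13. Under UDCA 7 fell and 2 rose. The 2 that fell on chow and the 2 that rose under UDCA are near the shares over all genes. Of 4 hemidesmosome partners of α6β4 3 rose and the same number fell under UDCA, with Dst at 1.94-fold, Cd151 at 1.44-fold and Plec at 1.42-fold on chow (adjusted p at most 0.00275).

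Of 9 genes of latent TGF-β and its carriers 6 rose and 0 fell on chow, and 7 fell under UDCA. Tgfb2 rose 2.31-fold, Tgfb1 1.76-fold and Tgfb3 1.68-fold (limma adjusted p = 0.0021, 0.00329 and 1.61e-05). Among 8 receptors and partners of thrombospondins 2 rose, namely Cacna2d1 (1.98-fold) and Calr (1.32-fold) (adjusted p = 3.18e-06 and 0.00199). The thrombospondin 1 receptors Cd36 and Cd47 were at -0.18 and 0.18 (adjusted p = 0.348 and 0.149). Of 5 other laminin receptors 1 rose, Bcam, 1.37-fold (adjusted p = 0.00143).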

How the data were processed

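Per the labels, total liver RNA was hybridised to Affymetrix MoGene 2.0 ST arrays. The deposited intensity values are unlogged RMA-PLM summaries, per the submitters' processing notes and labels, which give no version. No genome build is named there. Of 24973 rows, 24015 had 1 gene symbol, and symbols on several rows (4) were kept at the brightest.

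Intensities were converted to log2 with no pseudocount or filter. limma 3.58.1 (R 4.3.3) estimated 4 group means from the 22 arrays, and 6 comparisons were taken from them. P-values are two-sided, with Benjamini-Hochberg adjustment over 24011 genes, called below 0.05. Intervals are 95% intervals from this fit, which shares 1 variance per gene over all groups. The fit was tested on simulated data. Each numbered sample was taken as 1 mouse, which the labels do not state outright. Otherwise p-values would measure only a technical spread. No batch is labelled, but every group has title numbers in both 1 to 15 and 16 to 22, and whether these were processed separately is not stated. Numbers 16 to 22 hold 1 KO_chow and 1 KO_UDCA sample, so the knockout groups have no replicates within them. No test was run within either set of numbers. The number of arrays limits the precision.

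The members, lists and tests were chosen with earlier results of these data known. Values per mouse are given for members called with a log2 change of at least 0.8 in a comparison with KO_chow, the 3 brightest members and partner chains, and for Lama1, added after its values were seen. From each list up to 3 called genes with the largest change are named. Genes of a list named as falling or not called were added after their values were seen.

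Alternatives were quantile normalization, centring, a pseudocount of 16, a filter on dim genes, only the groups compared, array weights, a trend and robust prior, leaving out each array, leaving out KO_chow mice 2 and 5, and a term for title numbers 16 to 22.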

Additional observations from a re-analysis of the deposited data

Results flagged for a closer look

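In 5 of 140 sets of readings, each of 1 gene in 1 group, the highest mouse stood far from the others by Dixon's test, where chance gives about 1 in 20. Thbs1 in WT_chow replicate 4 read 5.482, and the nearest mouse 4.74. Itga6 in WT_UDCA replicate 1 read 6.022 (nearest 5.751), Itgb2 in WT_UDCA replicate 6 read 6.738 (nearest 6.317), Itga7 in KO_chow replicate 2 read 5.567 (nearest 5.345) and Lamc1 in KO_UDCA replicate 4 read 7.443 (nearest 7.273).

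The knockout effect differed between the diets by the interaction test in 8 genes (22.9%), against 2.67% of all genes. For Itgav, Lamc1, Itgb2 and Itgb6 the call was lost in 17, 19, 19 and 12 of the 22 fits without a single mouse. The effect under UDCA minus that on chow was -2.18 for Thbs1, -1.39 for Itga6, -0.86 for Itgav, -0.86 for Lamc1, -0.8 for Itga4, -0.77 for Itgb8, -0.75 for Itgb2 and -0.72 for Itgb6.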

How the results depend on the processing

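Of 4397 values of single genes under the alternatives, 4261 kept their side of the threshold, 119 lost a call and 17 gained it. The 4261 include 692, 657 and 657 from KO_UDCA vs WT_UDCA, KO_UDCA vs WT_chow and WT_UDCA vs WT_chow. There 0 members were called in the main fit, so no call could be lost. Lost calls numbered 17 in KO_chow vs WT_chow, 24 in KO_UDCA vs KO_chow and 78 in the interaction. The sign turned in 134 values, of which 0 were called in either fit. Leaving out KO_chow mice 2 and 5, chosen after seeing the data, took the members that fell in KO_UDCA vs KO_chow from 16 to 9. Over all genes that share went from 6.22% to 2.09%. Members with a smaller knockout effect under UDCA went from 8 to 3, and all genes in that direction from 2.07% to 0.766%. This fit uses fewer mice. A term for the second run of title numbers, also chosen after seeing the data, took this interaction count to 5 and moved no other call. Itgav, Itgb2 and Lamc1 were lost (limma adjusted p = 0.0557, 0.0619 and 0.0504), and 1.75% of all genes were called in this direction. Centring each array on its median took the interaction count to 5 as well, with 1.5% of all genes in this direction. The filter on dim genes, which left 27 of the 35 members, added 1 member to the opposite direction of the interaction. That direction held 2.79% of the genes the filter kept. The cause was not tested for these 3. Leaving out a single array gave 16 to 19 members higher and 1 lower in KO_chow vs WT_chow. Of all genes, 5.47% to 8.68% were higher and 3.71% to 7.35% lower. In KO_UDCA vs KO_chow it gave 14 to 16 members lower and 1 higher, against 4.15% to 7.05% and 2.49% to 6.28% of all genes. In the interaction it gave 4 to 9 members lower and 0 to 1 higher, against 1.09% to 3.31% and 0.162% to 1.77% of all genes. The interaction count fell to 4 without KO_chow replicate 2 or 5, KO_UDCA replicate 2 or 6, WT_UDCA replicate 2 or 6 or WT_chow replicate 1, 3 or 5. It fell to 5 without KO_UDCA replicate 3 or 5, WT_UDCA replicate 1, 3, 4 or 5 or WT_chow replicate 2 or 4. The share of all genes in this direction also fell in these fits, from 2.07% to between 1.09% and 1.69%, so the loss was not particular to the members. In the other 3 comparisons 0 members were called in every setting run, against at most 0.0792% of all genes.

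No paired analysis was possible because the labels give no replicate numbers shared between groups. Readings of members below the array median limit the size of their changes, and 8 of the 35 were removed by the filter on dim genes.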
